A study of Homo sapiens with 10 samples.

Results

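Wild-type BRG1 was set against wild-type BRM in C33A cells, with 4 of the 10 libraries of the study, 2 for each ATPase. Members of the splicing comparison were the exons that the tables of both ATPases listed in the same replicate, which gave 249 exons of 222 genes in replicate 1 and 96 exons of 86 genes in replicate 2. Together these were 335 distinct exons of the 2969 exons listed in any of the 8 splicing tables. Members of the expression comparison were 11987 of the 63152 genes in each table, namely those whose base mean reached 100 in the higher of the BRG1-wt and BRM-wt tables.

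BRG1 (SMARCA4) and BRM (SMARCA2) are the alternative ATPases of the human SWI/SNF complex, which uses ATP to move nucleosomes at promoters and enhancers. The paralogs are highly similar, only 1 of them is present in a complex, and many tumour lines have lost one or both. SWI/SNF has also been tied to alternative splicing, where an exon is either included in the mRNA or skipped.

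C33A is a cervical carcinoma line that the study describes as SWI/SNF deficient, and every group shared this background. BRG1-wt cells were transiently transfected with pBJ5-BRG1, BRM-wt cells with pCG-hBrm, BRG1-mut and BRM-mut cells with ATPase-deficient forms in the same plasmids, and control cells with the empty vector pOPRSVI. RNA was sequenced 48 h after transfection, with replicates 1 and 2 in each group, and nothing in the labels says whether these were separate cultures. The ATPases came from different plasmids, and neither plasmid is the control vector, so a difference between the ATPases and one between plasmids cannot be told apart. Transfected and untransfected cells were in the same RNA, and fewer cells with a transcript cannot be told apart from less RNA per cell.

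The tables bore out the 2 transfections. Values are base means, the mean number of normalised reads over the 2 libraries of an ATPase and the 2 control libraries, scaled between tables. SMARCA4 stood at 25802 with BRG1-wt and 30417 with BRG1-mut, against 3988 with BRM-wt and 2992 with BRM-mut. SMARCA2 had 61569 with BRM-wt and 73538 with BRM-mut, against 12.6 and 9.51 in the BRG1-wt and BRG1-mut tables. Reads from a plasmid and from the chromosomal gene cannot be told apart. Of the epithelial markers, KRT18 was at 696 and 609.5 and KRT8 at 456 and 383 in the BRG1-wt and BRM-wt tables, while EPCAM and CDH1 were low, at 23.4 and 5.48 in the BRM-wt table. Of 9 markers of other cell types, 6 stayed under 10 in all 4 tables. The leukocyte gene PTPRC, at 1606 and 1626 with BRG1-wt and BRM-wt, and the fibroblast collagen COL3A1, at 4017 and 4198, were exceptions, and COL1A1 was at 36.5 and 36.2.

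Each splicing table gives the PSI of an exon, which is how much of the gene's mRNA includes it on a scale of 0 to 1, in a library of the ATPase and in the control library with the same number. The BRM-wt libraries stood apart from each other. Over 281 exons that both BRM-wt tables listed, the median absolute difference in PSI between the BRM-wt replicates was 0.42, and replicate 1 was the higher in 201. Over 56 such exons of BRG1-wt it was 0.075. The values were 0.08 over 141 exons of BRG1-mut and 0.145 over 48 of BRM-mut, and the control libraries differed over the 281 exons by a median of 0.20. The library labelled BRM-wt replicate 1 was nearer in PSI to control replicate 2 than to its own control in 272 of the 281 exons, with a median distance of 0.08 against 0.32. The library labelled BRM-wt replicate 2 was nearer to control replicate 1, also in 272 of the 281, with 0.07 against 0.29. For BRG1-wt the same counts were 47 and 29 of 56 exons. They were 124 and 19 of 141 for BRG1-mut, and 25 and 33 of 48 for BRM-mut. Replicate 1 of both BRG1 groups was thus also mostly nearer to control replicate 2. Since an exon enters these counts only where each ATPase library differed from its own control, a distance to the own control is large by selection. Whether library labels or replicate numbers were exchanged was not tested. An exchange is possible, and would change which libraries each difference within a replicate compares. All values of the 2 replicates are therefore given apart below.

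The exons listed for both ATPases were a minor share of each list. In replicate 1 there were 631 events for BRG1-wt and 830 for BRM-wt, of which 256 were shared, 40.6% of the first and 30.8% of the second. In replicate 2 they held 396 and 977 events, of which 97 were shared, 24.5% and 9.93%. Counted as exons, BRG1-wt and BRM-wt shared 249 and 96 in replicates 1 and 2. BRG1-wt and BRG1-mut shared 251 and 95, BRM-wt and BRM-mut 118 and 129, and the mutants 110 and 99. Between their own replicates, BRG1-wt shared 56 exons and BRM-wt 281. A low share is thus not particular to this pair of ATPases. An exon that 1 of the tables did not list has no value there, so nothing can be said of its PSI with the other ATPase. Both tables of a replicate use the same control library.

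The 7 exons that carry these comparisons are printed first, from GRCh37, 5′ to 3′, with exon bases in capitals and up to 10 bases of flanking intron in lower case. Those of MYL6, PYCR1 and PBRM1 had a PSI in all 4 libraries. MYL6, an essential light chain of myosin, has its alternative exon 6 at chr12:56554410-56554454 on the plus strand, of which the 26 coding bases up to the stop codon are shown. PYCR1, an enzyme of proline synthesis, has a coding exon of 164 bases at chr17:79892202-79892365 on the minus strand. PBRM1, the BAF180 subunit of the PBAF form of SWI/SNF, has a coding exon of 156 bases at chr3:52588740-52588895 on the minus strand.
MYL6: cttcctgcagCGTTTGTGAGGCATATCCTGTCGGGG
PYCR1: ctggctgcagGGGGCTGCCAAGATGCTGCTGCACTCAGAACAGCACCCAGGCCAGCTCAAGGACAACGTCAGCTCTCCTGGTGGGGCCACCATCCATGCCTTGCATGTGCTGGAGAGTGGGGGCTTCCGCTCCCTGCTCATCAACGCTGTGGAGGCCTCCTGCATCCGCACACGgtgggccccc
PBRM1: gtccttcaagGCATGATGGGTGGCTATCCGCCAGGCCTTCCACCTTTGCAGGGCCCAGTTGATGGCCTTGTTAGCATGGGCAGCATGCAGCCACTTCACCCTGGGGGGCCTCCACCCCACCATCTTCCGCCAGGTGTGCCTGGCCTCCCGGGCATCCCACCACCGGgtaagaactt

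The next pair had a higher PSI with BRM-wt in replicate 1. Exon 2 of GADD45A, a stress-induced growth arrest gene, is coding, has 102 bases and lies at chr1:68151708-68151809 on the plus strand. The SZRD1 exon, coding, at chr1:16719723-16719977 on the plus strand, was listed in forms of 255 and 252 bases that differ by 3 bases at the start.
GADD45A: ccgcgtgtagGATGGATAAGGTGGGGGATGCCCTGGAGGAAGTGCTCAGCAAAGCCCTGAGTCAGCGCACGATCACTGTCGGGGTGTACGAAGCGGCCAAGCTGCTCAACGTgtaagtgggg
SZRD1: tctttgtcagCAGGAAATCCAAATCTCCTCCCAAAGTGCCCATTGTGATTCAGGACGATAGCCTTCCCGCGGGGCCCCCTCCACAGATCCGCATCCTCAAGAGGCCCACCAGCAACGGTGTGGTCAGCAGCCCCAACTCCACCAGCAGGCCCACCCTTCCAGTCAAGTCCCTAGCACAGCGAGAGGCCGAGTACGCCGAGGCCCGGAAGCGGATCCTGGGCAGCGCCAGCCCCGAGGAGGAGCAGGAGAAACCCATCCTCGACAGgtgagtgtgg

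The last pair had a higher PSI with BRG1-wt in replicate 2. VPS29, a subunit of the retromer that sorts endosomal cargo, has a coding microexon of 12 bases at chr12:110937340-110937351 on the minus strand. The SMARCA4 exon is coding, has 99 bases and lies at chr19:11144443-11144541 on the plus strand.
VPS29: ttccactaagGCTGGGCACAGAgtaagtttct
SMARCA4: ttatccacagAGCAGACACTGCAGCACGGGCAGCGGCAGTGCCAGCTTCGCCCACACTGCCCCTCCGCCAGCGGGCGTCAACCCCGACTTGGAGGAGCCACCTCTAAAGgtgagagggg

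In replicate 1, inclusion was higher with BRM-wt than with BRG1-wt in 142 of the 249 exons, lower in 94 and equal in 13. The mean difference, BRM-wt minus BRG1-wt, was 0.047 ± 0.133 (SD over exons) and the median 0.02. The PSI lay within 0.05 of each other in 128 exons (51.4%). It was higher with BRM-wt by at least 0.2 in 31 exons (12.4%) and higher with BRG1-wt by as much in 3 (1.20%). Each ATPase had 1 library here, so these counts have no replicate check and no test. Both ATPases were read against the same control library, from which BRM-wt was the farther in 171 exons and BRG1-wt in 65.

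The largest differences in replicate 1 were in exons of SZRD1, HNRNPUL1, NRSN2 and MBOAT7. The SZRD1 exon of 252 bases was included at 0.21 in the control, 0.49 with BRG1-wt and 0.97 with BRM-wt. The form of 255 bases gave 0.24, 0.52 and 0.96, and these forms share nearly all their reads. In HNRNPUL1, an hnRNP U-like RNA-binding protein, an exon of 192 bases at chr19:41811581-41811772 went from 0.27 in the control to 0.48 with BRG1-wt and 0.91 with BRM-wt. NRSN2 had 0.16, 0.33 and 0.75 in the same order for an exon of 195 bases at chr20:330282-330476. MBOAT7, a lysophospholipid acyltransferase, had 0.17, 0.30 and 0.71 for an exon of 177 bases at chr19:54682482-54682658. In each of these, BRG1-wt lay between the control and BRM-wt.

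GADD45A exon 2 followed the same order in replicate 1, with a PSI of 0.08 in the control, 0.17 with BRG1-wt and 0.49 with BRM-wt. The study describes the form with exon 2 as the most abundant in C33A cells, unlike the control values of 0.08 and 0.19 here. The reason was not examined. Other known regulators among the 31 exons were ERBB2, the HER2 receptor, at 0.26, 0.77 and 0.99, and FGFR1, a fibroblast growth factor receptor, at 0.15, 0.49 and 0.89. The bromodomain gene BRD2 had 0.32, 0.54 and 0.94. MEN1, the menin tumour suppressor, had 0.07, 0.33 and 0.60, and OGG1, a DNA glycosylase for oxidised guanine, 0.25, 0.56 and 0.91. These genes were picked after their values were seen.

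At least 0.2 higher inclusion with BRG1-wt was found in 3 exons of replicate 1, in INO80E, ITGB1 and RPLP1. INO80E, a subunit of the INO80 remodelling complex, had a form of 3446 bases that holds an annotated intron, with a PSI of 0.50 in the control, 0.71 with BRG1-wt and 0.30 with BRM-wt. It was raised over the control with BRG1-wt and lowered with BRM-wt. An exon of ITGB1, the integrin beta-1 chain, of 217 bases at chr10:33242521-33242737 had 0.94, 0.45 and 0.22, so BRM-wt was the lower of the pair. RPLP1, a ribosomal stalk protein, had 0.89, 0.45 and 0.24 for a form of 1641 bases that also holds an intron. TIMMDC1, an assembly factor of mitochondrial complex I, followed below that limit at 0.92, 0.59 and 0.40, and ASH2L, a subunit of histone H3K4 methyltransferases, at 0.74, 0.39 and 0.22.

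**Figure D1:**
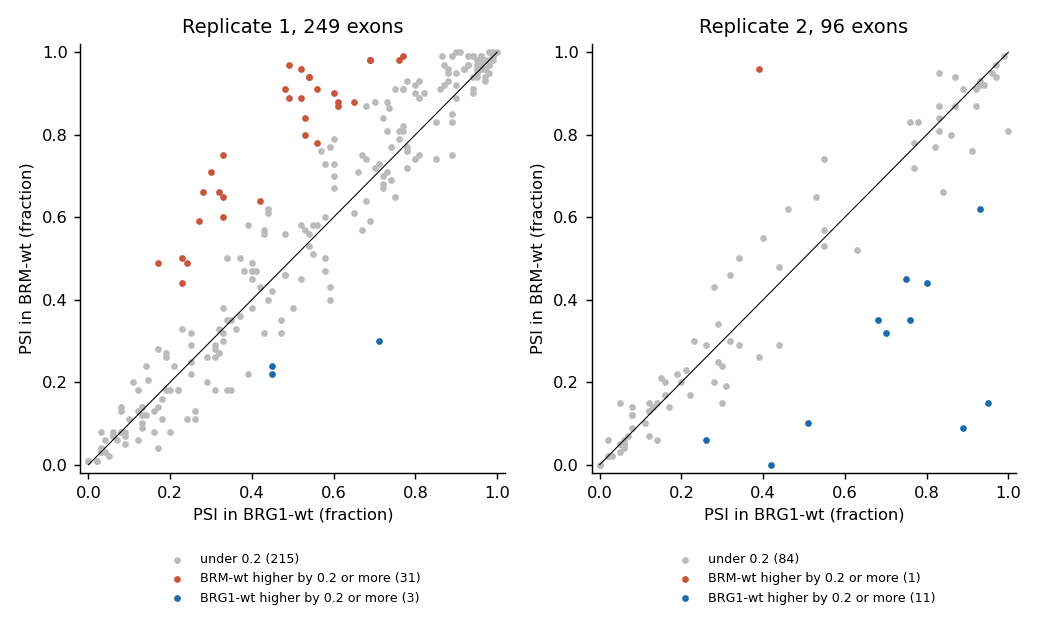
PSI (fraction) of each exon listed for both ATPases, with BRG1-wt on the x axis and BRM-wt on the y axis, for replicate 1 (left, 249 exons) and replicate 2 (right, 96 exons). Points off the diagonal by at least 0.2 lie mostly above it in replicate 1 (31 against 3) and mostly below it in replicate 2 (11 against 1).

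In replicate 2 the larger differences ran the other way. Inclusion was higher with BRM-wt in 37 of the 96 exons, lower in 46 and equal in 13, with a mean difference of -0.042 ± 0.178 (SD over exons) and a median of 0. The PSI lay within 0.05 in 58 exons (60.4%). BRM-wt was higher by at least 0.2 in 1 exon (1.04%) and BRG1-wt in 11 (11.5%). BRM-wt was the farther from the shared control in 49 exons and BRG1-wt in 32.

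A cancer/testis antigen locus gave the largest differences of replicate 2. An exon of MAGEA2B of 79 bases at chrX:151883568-151883646 was at 0.38 in the control, 0.95 with BRG1-wt and 0.15 with BRM-wt. A form of 311 bases that also holds an intron had 0.22, 0.89 and 0.09. MAGEA2B has a near-identical copy, MAGEA2, and reads may be split between them. In replicate 1 the 79-base exon was at 0.90 in the control and 0.36 with BRG1-wt, so that BRG1-wt lay on opposite sides of the control in its 2 replicates.

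The VPS29 microexon was included at 0.53 in control replicate 2, 0.42 with BRG1-wt and 0.00 with BRM-wt. In replicate 1 it was at 0.41 with BRM-wt and 0.55 in the control. An exon of 295 bases of POLL, DNA polymerase lambda, had 0.57 in control replicate 2, 0.76 with BRG1-wt and 0.35 with BRM-wt. BRM-wt replicate 1 was at 0.855 there, above both BRG1-wt and its own control at 0.545. The PYCR1 exon had 0.39, 0.51 and 0.10 in the control, BRG1-wt and BRM-wt of replicate 2.

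The SMARCA4 exon was included at 0.03 in control replicate 2, 0.70 with BRG1-wt and 0.32 with BRM-wt. In replicate 1 it was at 0.11 in the control and 0.85 with BRG1-wt. Both BRG1-wt libraries lay above the single BRM-wt value and both controls. BRG1-wt cells received SMARCA4 cDNA, whose reads cannot be told apart from those of the chromosomal gene. Whether the cDNA holds this exon was not checked, and the part of its reads in this PSI was not tested.

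RPLP1 was the 1 exon at least 0.2 higher with BRM-wt in replicate 2, at 0.43 in the control, 0.39 with BRG1-wt and 0.96 with BRM-wt. Next came ENPP5 at 0.11, 0.55 and 0.74, TNK2, a non-receptor tyrosine kinase, at 0.08, 0.34 and 0.50, and SREBF1, the sterol regulatory transcription factor, at 0.24, 0.46 and 0.62. In all 3 the ATPases were under 0.2 apart, and none of them was listed for either ATPase in replicate 1.

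The differences of replicate 1 could be set against the BRM-wt library that they did not use. Of the 31 exons with a higher PSI for BRM-wt in replicate 1, 27 were also listed in the BRM-wt table of replicate 2. BRM-wt replicate 2 lay below BRG1-wt replicate 1 in 27 of these 27 and above it in 0. The median PSI over them was 0.25 in control replicate 1, 0.52 with BRG1-wt and 0.88 with BRM-wt in replicate 1, and 0.64 in the control and 0.18 with BRM-wt in replicate 2. For GADD45A exon 2, BRM-wt replicate 2 was at 0.04 with its control at 0.19. For SZRD1 (252 bases) these values were 0.15 and 0.67, for HNRNPUL1 0.19 and 0.60, and for MBOAT7 0.09 and 0.42.

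The exons with BRG1-wt higher in replicate 1 turned as well. All 3 (INO80E, ITGB1 and RPLP1) were listed for BRM-wt in replicate 2, at 0.94, 0.91 and 0.96, each above BRG1-wt replicate 1. Over the 122 member exons of replicate 1 that BRM-wt replicate 2 listed, that library was at least 0.2 below BRG1-wt replicate 1 in 76 and at least 0.2 above it in 19. Of the 11 exons with BRG1-wt higher in replicate 2, 5 were listed for BRM-wt in replicate 1, and 4 of these lay above BRG1-wt replicate 2. Among exons at least 0.2 apart that were also listed for the other BRM-wt library, the direction mostly changed with the BRM-wt library used. An exon was listed for that library only where it differed from its own control. Exons in which the other BRM-wt library stayed near its control could not enter these counts.

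**Figure D2:**
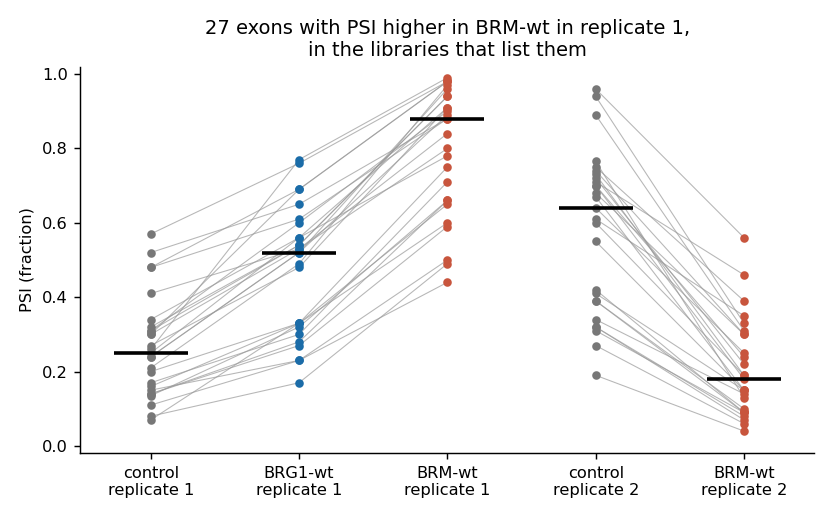
PSI (fraction) of 27 exons with a PSI at least 0.2 higher for BRM-wt than for BRG1-wt in replicate 1 that BRM-wt replicate 2 also listed. Thin lines join the libraries of 1 replicate for an exon and thick bars mark medians, which are 0.88 for BRM-wt in replicate 1 and 0.18 in replicate 2, on either side of 0.52 for BRG1-wt replicate 1.

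A PSI in all 4 libraries was available for 10 exons, and no difference between the ATPases passed the test. Limma found 0 of the 10 exons (0% called) at an adjusted p under 0.05 and 0 at an unadjusted p under 0.05. The smallest adjusted p was 0.891 (limma, Benjamini-Hochberg over the 10 exons). In 0 of the 10 exons did the BRG1-wt values lie apart from the BRM-wt values. An exact permutation test of 2 libraries against 2 could not go below 0.333. In 8 of the 10 exons the difference changed sign between the replicates, and it kept its sign in the 2 overlapping forms of CFL1.

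MYL6 exon 6 had a PSI of 0.13 and 0.14 with BRG1-wt and 0.14 and 0.06 with BRM-wt in replicates 1 and 2, against 0.07 and 0.10 in the controls. The difference, BRM-wt minus BRG1-wt, was -0.035 with a standard error of 0.064. BRG1-wt in both replicates and BRM-wt in replicate 1 were above both controls, and BRM-wt replicate 2 was below both controls. The PYCR1 exon had 0.32 and 0.51 with BRG1-wt and 0.66 and 0.10 with BRM-wt, for a difference of -0.035 with a standard error of 0.237. The BRG1-wt values lay between those of BRM-wt. PBRM1 had 0.40 and 0.30 with BRG1-wt and 0.49 and 0.15 with BRM-wt, again with BRG1-wt in between, and controls at 0.18 and 0.54.

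YTHDF1, a reader of N6-methyladenosine in mRNA, had 0.53 and 0.68 with BRG1-wt and 0.80 and 0.35 with BRM-wt for a coding exon of 1521 bases. RPLP1 had 0.45 and 0.39 against 0.24 and 0.96. In the actin gene ACTB, whose product is also a SWI/SNF subunit, a form that holds an intron had 0.31 and 0.28 with BRG1-wt and 0.29 and 0.43 with BRM-wt. SUGP2 had 0.72 and 0.53 against 0.70 and 0.65. A 21-base exon of DIAPH2, a formin, had 0.43 and 0.06 against 0.56 and 0.05, and here the replicates of both ATPases lay far apart. CFL1, the actin-severing protein cofilin, had 0.21 and 0.26 with BRG1-wt and 0.24 and 0.29 with BRM-wt for its form of 246 bases, a difference of 0.03 with a standard error of 0.062.

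Without BRM-wt replicate 1, which was at 0.24, the difference of RPLP1 was 0.54. Without BRM-wt replicate 2, which was at 0.96, it was -0.18. Each of these fits leaves 1 BRM-wt library, so the spread within BRM-wt is not measured and only the differences are given.

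**Figure D3:**
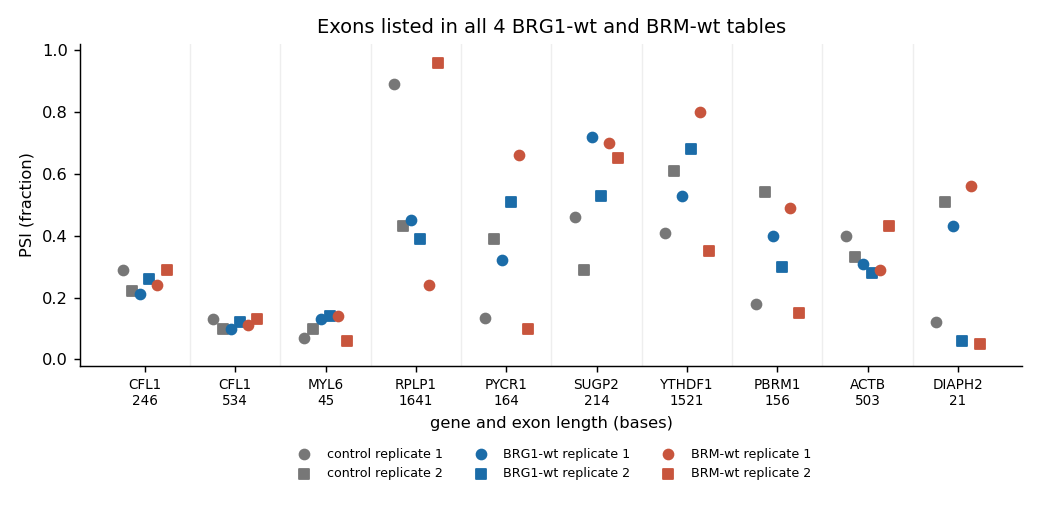
PSI (fraction) of the 10 exons listed in all 4 tables, labelled by gene and exon length, with circles for replicate 1 and squares for replicate 2. The BRM-wt values of PYCR1 (0.66 and 0.10), YTHDF1 (0.80 and 0.35) and PBRM1 (0.49 and 0.15) bracket the BRG1-wt values.

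Exon 5 of MAZ, a zinc finger transcription factor, was listed for BRM-wt but not for BRG1-wt, and so has no pair of values. Few member exons lay in the gene lists. For NR4A1, an immediate early nuclear receptor, an exon of 110 bases had 0.71 in the control, 0.25 with BRG1-wt and 0.32 with BRM-wt in replicate 1. Among splicing regulators, forms of HNRNPR of 166 and 169 bases had 0.37 and 0.35 with BRG1-wt and 0.36 and 0.35 with BRM-wt. A form of SRSF7 of 449 bases had 0.13 and 0.14 in replicate 2.

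Some exons were far from the control and nearly equal between the ATPases, and those named here were picked after their values were seen. In replicate 1, an exon of ABCC1, a drug efflux pump, of 195 bases was at 0.43 in the control, 0.95 with BRG1-wt and 0.96 with BRM-wt. PSMD12, a proteasome subunit, had 0.63, 0.06 and 0.07, and the noncoding RNA SNHG15 had 0.31, 0.96 and 0.96. In replicate 2, SFXN5 had 0.24, 0.83 and 0.84, and PLSCR1, an interferon-inducible scramblase, 0.23, 0.87 and 0.87. Both values of an exon use the same control library.

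The exons with BRM-wt higher in replicate 1 had a higher mean GC content than the member exons as a whole. The 31 exons with BRM-wt higher had a GC content of 61.5% ± 3.23 (SD over exons), all 249 had 55.2% ± 9.37, and the 128 within 0.05 had 53.7% ± 9.01. The 3 exons with BRG1-wt higher had 51.3% ± 8.13. Of the 31, 24 were fully coding, 4 partly coding and 3 non-coding, against 134, 66 and 49 of the 249. None of the 31 held an annotated intron, against 13 of the 249, and 18 of the 31 (58.1%) had a length that is a multiple of 3, against 116 of 249 (46.6%). In replicate 2 the 11 exons with BRG1-wt higher had a GC content of 57.6% ± 9.81 against 51.7% ± 10.6 over all 96, and the 1 exon with BRM-wt higher had 45.0%. Exons of 1 library are not replicates, so these are descriptions with no test. The GC content of the libraries' reads was not measured, and its part in the result was not tested.

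The share of exons at least 0.2 apart was 13.7% in replicate 1 and 12.5% in replicate 2 for BRG1-wt and BRM-wt. It was 9.96% and 7.37% for BRG1-wt and BRG1-mut, 43.2% and 17.1% for BRM-wt and BRM-mut, and 42.7% and 16.2% for the mutants. These pairs share control libraries and list different exons, and the difference between them was not tested.

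In expression, the base means of most genes were nearly equal for BRG1-wt and BRM-wt, and 4 of the few genes that were higher with BRG1-wt belonged to the list of interferon-stimulated genes (IFI6, IFI27, IFI35 and ISG15). Such genes are induced when interferon binds its receptors, and many of their products block viral replication. IFITM1, IFITM3, DHX58 and NLRC5, also higher with BRG1-wt, are not on the list but are known to be induced by interferon. Of the 11987 genes, 11880 (99.1%) had base means within 1.2 times of each other. Apart from the transfected genes SMARCA4 and SMARCA2, 11 of 11985 genes (0.0918%) had a base mean at least 1.5 times higher with BRG1-wt and 2 (0.0167%) at least 1.5 times higher with BRM-wt. Of the 11, HSPA6, IFITM1, IFITM3 and CSAG2 reached the minimum of 100 only in the BRG1-wt table where they were high, and of the 2, FRMD4B only in the BRM-wt table. The minimum thus let these 5 genes in through the table in which they were higher, and 7 and 1 genes reached it in both tables. The base mean is a single value for each table with no replicate values, so no test was made.

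Because each base mean includes the same control libraries, a ratio of base means is nearer to 1 than the ratio of the ATPase libraries. The lowest of the 4 base means of a gene limits how much of them the controls can hold, and gives bounds for the ratio of the mean of the BRG1-wt libraries to the mean of the BRM-wt libraries. The bounds do not include the spread between replicates, which is unknown.

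IFITM1 (chr11:310041-315272, plus strand, GRCh37), an interferon-induced membrane protein that blocks viral entry, had base means of 178 with BRG1-wt, 84.6 with BRM-wt, 2.32 with BRG1-mut and 0.988 with BRM-mut. The ratio of the wild-type libraries was between 2.11 and 2.12. The neighbouring IFITM3 had 109 and 56.9, with 6.49 and 2.53 in the mutant tables, and a ratio of 1.92 to 1.97. IFITM1 and IFITM3 are near-identical in part, and reads may be split between them. DHX58, the RIG-I-like receptor LGP2, had 237 and 128, a ratio of 1.86 to 2.06. In all 3 the mutant tables were far below both wild-type tables.

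IFI6, an interferon-induced inhibitor of apoptosis, had 2399 with BRG1-wt, 1507 with BRM-wt, 336 with BRG1-mut and 154 with BRM-mut, a ratio of 1.59 to 1.66 for the wild-type libraries. ISG15, a ubiquitin-like modifier, had 1194 and 737, with 631 and 148 in the BRG1-mut and BRM-mut tables, and a ratio of 1.62 to 1.78. IFI27 (208 and 129), IFI35 (355 and 210.5) and NLRC5, an activator of MHC class I genes (233 and 138), were also at least 1.5 times higher with BRG1-wt. So was LGALS3BP, a secreted galectin-binding protein, at 684 and 432.

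Of the interferon-stimulated genes listed, 23 were found and 18 of them passed the minimum of 100. In 4 of these 18 the base mean was at least 1.5 times higher with BRG1-wt, and in 0 with BRM-wt. In 9 it was at least 1.2 times higher with BRG1-wt and in 0 with BRM-wt, against 71 and 36 of all 11987 genes. The median log2 ratio of the 18 was 0.26, against 0.00 over all genes, and it was 0.24 after the trend with GC content was subtracted. The list was chosen with earlier results of these data known and is not independent evidence.

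The list was not uniform. OAS2, an activator of RNase L, had 1414 with BRG1-wt and 1449 with BRM-wt, and IFIT1, which binds viral RNA, 7937 and 8259. IFIH1, the RNA sensor MDA5, had 447 and 456, and IFIT3 had 1050 and 1046. These genes of the same response were within 1.2 times between the ATPases. MX1, a dynamin-like antiviral GTPase, had 1943 and 1539, and OAS1 896 and 714, both over 1.2 but under 1.5 times higher with BRG1-wt. BST2, tetherin, was under the minimum, with 86.0 and 37.5.

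The letters GAAANNGAAA, the core of the interferon-stimulated response element, were searched on both strands of RefSeq promoters (GRCh38.p14, 250 bases before to 50 after the gene start). They were in 6 of the 9 promoters found for the 12 genes higher with BRG1-wt, SMARCA4 included, in 12 of 17 for the interferon-stimulated list and in 28 of 77 (36.4%) for the genes common to both ATPases described below. They were in 4.38% of all 27305 genes with a promoter sequence and in 3.71% of the 8982 tested genes with a sequence. For the 10 genes with the largest ratio toward BRM-wt, they were in 0 of 6 promoters found. The AP-1 letters TGANTCA were in 1 of the 9, 1 of the 6, 6.22% of the tested genes and 9.37% of all. IFITM1 and IFITM3, which had GAAANNGAAA, reached the minimum base mean only in the BRG1-wt table, where they were high. So did HSPA6, which had TGANTCA but not GAAANNGAAA. The count of 6 of 9 includes IFITM1, IFITM3 and HSPA6 and was not made without them. A match is a description of the window, not of a bound site. The 250 bases before the start are printed for 3 genes higher with BRG1-wt, with GAAANNGAAA in capitals. In ISG15 a further match, GAAACCGAAA, overlaps the end of the capitals and runs on in lower case. In GRCh38.p14 they lie at chr11:313790-314039 on the plus strand for IFITM1, chr1:27672193-27672442 on the minus strand for IFI6 and chr1:1013247-1013496 on the plus strand for ISG15.
IFITM1: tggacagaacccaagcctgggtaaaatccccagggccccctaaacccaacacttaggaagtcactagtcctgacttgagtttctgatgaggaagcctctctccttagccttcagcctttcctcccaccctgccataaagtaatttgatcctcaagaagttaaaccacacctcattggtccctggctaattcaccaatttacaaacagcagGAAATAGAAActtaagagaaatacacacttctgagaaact
IFI6: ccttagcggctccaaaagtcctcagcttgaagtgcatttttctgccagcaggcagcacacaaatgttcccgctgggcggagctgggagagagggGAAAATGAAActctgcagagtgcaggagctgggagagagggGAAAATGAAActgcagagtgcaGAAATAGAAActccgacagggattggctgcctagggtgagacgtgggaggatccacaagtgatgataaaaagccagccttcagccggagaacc
ISG15: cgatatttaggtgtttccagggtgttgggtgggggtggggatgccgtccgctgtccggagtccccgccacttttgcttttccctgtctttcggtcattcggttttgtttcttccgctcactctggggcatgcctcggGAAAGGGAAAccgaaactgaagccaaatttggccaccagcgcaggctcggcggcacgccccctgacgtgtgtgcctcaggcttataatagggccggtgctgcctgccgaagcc

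Outside the interferon response, HSPA6, a strictly stress-inducible HSP70, had 151 with BRG1-wt, 91.3 with BRG1-mut, 22.5 with BRM-wt and 145 with BRM-mut. BRM-wt was the low value, and BRM-mut was near BRG1-wt. Its relatives HSPA1A and HSPA1B had 811 and 616, and 1442 and 1134, while the other 13 of 16 heat shock genes tested were within 1.2 times. HSPA6, HSPA1A and HSPA1B share long stretches of sequence. CSAG2, a cancer/testis antigen gene, had 156 with BRG1-wt and 93.3 with BRM-wt, while its copy CSAG3 had 74.2 and 100.1, so reads may be split between them.

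**Figure D4:**
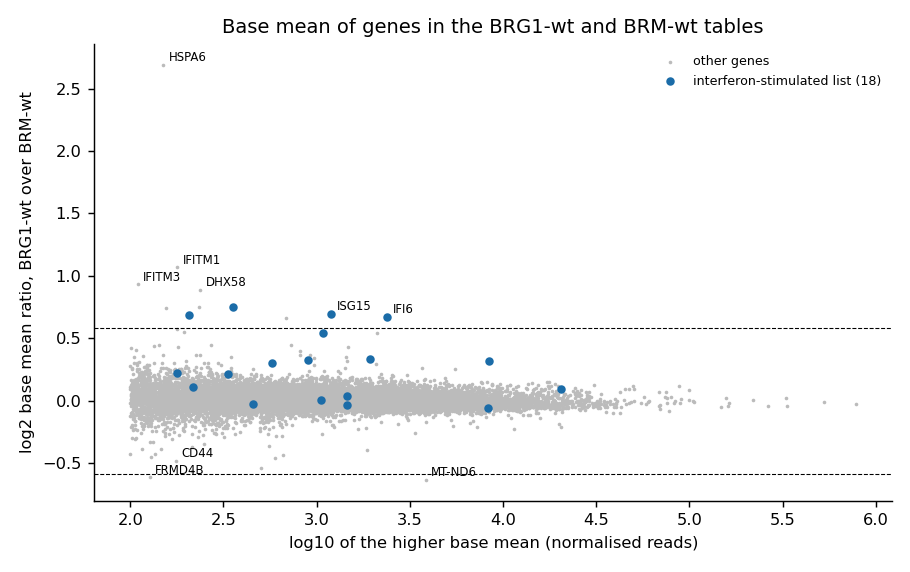
Log2 ratio of the base mean in the BRG1-wt table over that in the BRM-wt table, against log10 of the higher base mean, for the genes that passed the minimum of 100, without SMARCA4 and SMARCA2. Dashed lines mark 1.5 times. The 18 interferon-stimulated genes (blue) range from -0.06 to 0.75, with no gene of the list near the lower line.

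Few genes leaned toward BRM-wt. FRMD4B, a FERM-domain scaffold protein, had base means of 82.8 with BRG1-wt and 127 with BRM-wt, with 5.08 and 6.0 in the mutant tables, and a ratio of BRM-wt to BRG1-wt libraries of 1.54 to 1.57. It reached 100 only with BRM-wt, and its log2 ratio of -0.61 became -0.57, under 1.5 times, with 10 added to each base mean or with no scaling. MT-ND6, the only protein gene on the light strand of mitochondrial DNA, had 2471 with BRG1-wt, 1793 with BRG1-mut, 3844 with BRM-wt and 2829 with BRM-mut. The mitochondrial tRNA gene MT-TP, which lies on the same strand, had 145 and 215. The other 12 mitochondrial mRNAs had log2 ratios of -0.05 to 0.10. Whether the counting used strand is not stated, and without it reads of MT-ND6 and of transcripts from the other strand cannot be told apart.

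The next ratios toward BRM-wt, after MT-TP, were below 1.5 times and came from genes of varied function. MYO10, an unconventional myosin of filopodia, had 345 with BRG1-wt and 501 with BRM-wt. CD44, the hyaluronan receptor, had 126 and 177, with 8.55 and 5.94 in the mutant tables and a ratio of BRM-wt to BRG1-wt libraries of 1.40 to 1.42. The coagulation initiator F3 had 436 and 599, and MMP1, the interstitial collagenase, 488 and 662. Of the 19 extracellular matrix, integrin and adhesion genes tested, 2 (CD44 and MMP1) were at least 1.2 times higher with BRM-wt and 0 with BRG1-wt, and the median log2 ratio of the list was 0.02. The others of the 10 largest ratios toward BRM-wt were CSAG3, MZT2B (101 and 135) and a processed pseudogene without a symbol. CSAG3 and the pseudogene reached the minimum of 100 only with BRM-wt.

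Genes common to both ATPases were taken as those with a base mean in each wild-type table at least 1.5 times that of both mutant tables. There were 108 of 11870 genes (0.910%). Genes lower in both wild-type tables were not counted, and the rule compares with the mutants, not with the control. SP100, a component of PML nuclear bodies, had 278 with BRG1-wt and 291 with BRM-wt, against 6.34 with BRG1-mut and 3.93 with BRM-mut. KRT80, an epithelial keratin, had 261 and 217, against 5.15 and 2.74. SPARC, a matrix glycoprotein, had 184 and 158, against 6.30 and 5.39. UCA1, a long noncoding RNA, had 689 and 730, against 102 and 104. For these 4 genes the wild-type values were within 1.21 times of each other, and each exceeded both mutants several-fold.

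The other common genes with the largest ratios were XAF1, OAS2, MX2, MX1, OAS1 and TRIM22 of the interferon response, and CD44. Of the 18 interferon-stimulated genes tested, 16 were common to both ATPases, as were 4 of 19 adhesion genes, 4 of 13 annexin and S100 genes and 3 of 6 keratin and junction genes. Over all genes the share was 0.910%. The lists were chosen with earlier results of these data known and are not independent evidence. The S100 calcium-binding gene S100A16 had 448 and 456, against 51.3 and 35.3, and ANXA3, an annexin, had 202 with BRG1-wt and 245 with BRM-wt. The 3 keratin genes were KRT8, KRT18 and KRT80.

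Other lists gave no gene past 1.5 times apart from the transfected genes. Among 27 SWI/SNF subunit genes tested, the subunits other than the ATPases had log2 ratios of -0.13 (BCL7C) to 0.12 (SMARCD2). All 35 hnRNP and SR splicing regulators tested lay between -0.07 and 0.09. All 13 AP-1 and immediate early genes tested lay between -0.07 and 0.18.

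**Figure D5:**
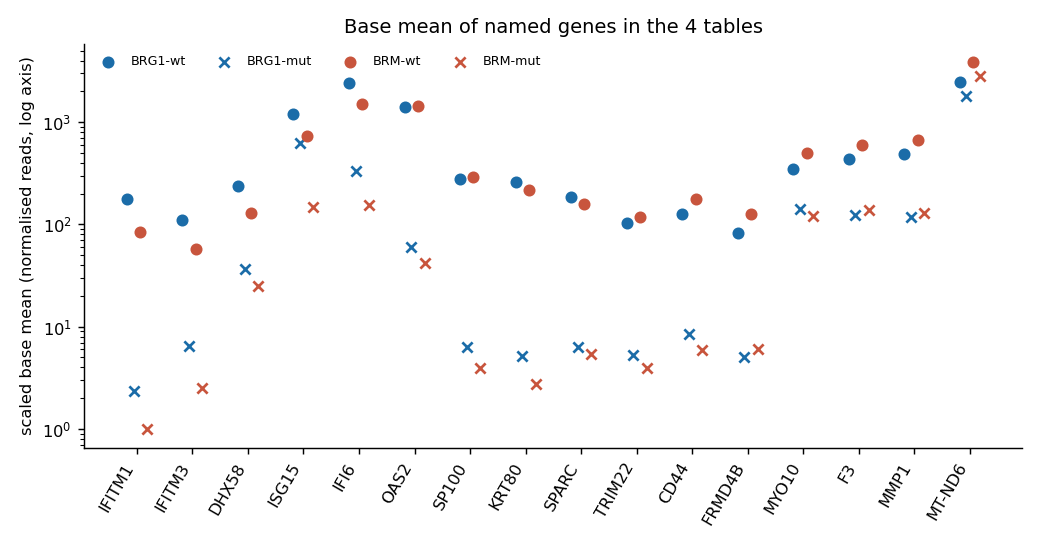
Scaled base mean (log axis) of 16 named genes in the 4 tables, with circles for wild-type and crosses for mutant ATPases. Genes from IFITM1 to IFI6 are higher with BRG1-wt (178 against 84.6 for IFITM1), OAS2 to TRIM22 are near equal, and CD44 to MT-ND6 are higher with BRM-wt.

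Of 298 genes with a member exon, 264 had a base mean of at least 100, and their median log2 ratio of BRG1-wt over BRM-wt was 0.03, against 0.00 over all genes tested. Only the transfected SMARCA4 was past 1.5 times. Of all 11987 genes tested, 12 were past 1.5 times toward BRG1-wt and 3 toward BRM-wt, the transfected genes included. PLSCR1, with 1236 and 1198, was among the genes common to both ATPases. MYL6 had 5113 with BRG1-wt and 4705 with BRM-wt, GADD45A 2197 and 2216, and MAZ 4149 and 3968.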

How the data were processed

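RNA of C33A cells was sequenced by the study in 5 groups of 2 libraries. Per the submitters' processing notes, reads were aligned to GRCh37 with TopHat2 2.0.4 and counted with HTSeq 0.6.1, and DESeq2 compared each ATPase with the control. The base mean (handled as a score, with no counts per library in the tables) is the authors' pooled mean of normalised counts over 4 libraries. The authors estimated the PSI, deposited as a fraction, with MISO, and kept events with a Bayes factor above 10 against the control of the same number. The deposited tables also hold the authors' own comparisons (fold changes, standard errors, p-values, Bayes factors and PSI differences), which were not used, so differences between effects against the control were not computed for expression. A second, identical copy of the BRG1-wt expression table was left out, and 0 columns of per-sample values went unused. The depth of each library is not given in the tables, so counting error could not be stated.

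Events were joined by coordinates, events of the same exon averaged, and PSI compared within a replicate. The study left out exons with opposite effects in its replicates, and that step was not applied here, so such exons are included. An exon counted as different at 0.2 or more and as close within 0.05. Exons with 4 values were tested with limma 3.58.1 (R 4.3.3) on BRG1-wt against BRM-wt, with Benjamini-Hochberg adjustment. Base means were scaled by the median ratio over the 11646 genes at 100 or more in all 4 tables, and ratios were taken after adding 1. Factors were 0.980 for BRG1-mut, 0.969 for BRM-wt and 1.028 for BRM-mut. Genes were named from a gene table that gave a symbol to 55139 of the 63152 IDs. Python 3.11.15, pandas 2.3.3, numpy 2.4.6, pysam 0.24.0 and matplotlib 3.10.9 were used. The limma fit and the base mean steps were also run on simulated data with known changes, and the other steps were not.

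The text names the exons with the largest differences in each direction and replicate, the exons with 4 values, the 10 largest base mean ratios in each direction, the 10 largest common genes and genes the study singles out, and says where others were picked by their values. Members and lists were chosen with earlier results of these data known. Libraries are called replicates as the labels do. Where they share a culture, the limma p-values measure technical spread only. The labels do not say whether same-numbered libraries shared anything beyond the number, and the test had no replicate term. Results for some items are not reported here.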

Additional observations from a re-analysis of the deposited data

How the results depend on the processing

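The splicing results changed with the choice of BRM-wt library, as far as exons were listed for both BRM-wt libraries. Exons at least 0.2 apart in replicate 1 (34) became 87 at a difference of 0.1, 18 at 0.3 and 95 of 122 with BRM-wt replicate 2 in place of replicate 1. Those of replicate 2 (12) became 29 at 0.1 and 1 of 15 with BRM-wt replicate 1 in place. Exchanging the libraries was chosen after seeing the data. Among exons with 4 values, limma called 0. With the replicate number as a replicate block limma called 0, and the smallest adjusted p was 0.782. Leaving out 1 library leaves 1 in its group, so only differences are given for those fits. Deviations of same-numbered libraries had a correlation of -0.04 over the 10 exons, which share libraries. Leaving out 1 library moved the difference, BRM-wt minus BRG1-wt, from -0.075 to 0.005 for MYL6, -0.18 to 0.54 for RPLP1, -0.315 to 0.245 for PYCR1, -0.045 to 0.145 for SUGP2, -0.255 to 0.195 for YTHDF1, -0.2 to 0.14 for PBRM1, -0.005 to 0.135 for ACTB and -0.195 to 0.315 for DIAPH2. Where 1 library was left, it was assumed to vary like the other group.

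Genes at least 1.5 times higher with BRG1-wt, 12 with SMARCA4, were 74 at a minimum base mean of 10, 3 at 1000, 1239 with no filter and 3 at 2 times. Those higher with BRM-wt, 3 with SMARCA2, were 44 at a minimum of 10, 1107 with no filter and 1 at 2 times. The 108 common genes were 273 at a minimum of 10, 32 at 1000, 577 with no filter and 66 at 2 times. Low minimums admit genes with few reads, and the cause of the other changes was not tested. Correcting for GC content gave 13, 3 and 136 genes, and no scaling 14, 2 and 101. Replicate values and depth are not known for expression, so no ratio could be tested.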
